A study of Homo sapiens with 8 samples.

Results

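HOXD1 is 1 of the 17076 genes measured here by mRNA sequencing of Huh7 cells, an established human hepatocellular carcinoma line. It was selected because it stood first among all tested genes by the size of its fall when UPF1 was depleted. That selection used the siControl and siUPF1 values, so these values are described below without a test. The other 26 HOX genes in the tables serve for comparison.

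The 8 libraries formed 4 groups of 2. In siControl the cells received a scrambled siRNA, and in siUPF1 an siRNA against UPF1. In MYC the cells received a control plasmid with a MYC tag, and in MYC-UPF1 a plasmid for MYC-tagged UPF1. All 8 libraries came from Huh7 cells transfected with the same lipid reagent, and each treated group had its own control. The labels do not say whether the libraries of a group came from separate cultures, so the p-values below measure only the spread between these samples, which may be technical. Expression was given as FPKM, fragments scaled to the exon length in kilobases and to the total of mapped fragments, so that gene length is already divided out. Depth per library is unknown, since the deposited FPKM values did not resolve into whole reads.

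HOX genes encode homeodomain transcription factors that assign position along the body axis. They lie in clusters A to D, and the order of the genes within a cluster follows the order of their expression along the embryo. HOXD1 is the most 3′ gene of the HOXD cluster, the end that opens early and responds to retinoic acid. UPF1 is the RNA helicase at the core of nonsense-mediated mRNA decay, the pathway that degrades transcripts on which translation ends too early, and it acts in other mRNA decay routes as well.

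In the GENCODE 44 annotation on GRCh37, the sequence also called hg19, HOXD1 occupied chr2:177053396-177055635 on the plus strand. Its canonical transcript of 1886 bases had 2 exons. Exon 1 ran from 177053396 to 177054181 and exon 2 from 177054536 to 177055635, on either side of an intron of 354 bases. The coding sequence of 984 bases was followed by a 3′UTR of 765 bases, which was longer than in 35.1% of 13148 coding genes, against a median of 905 bases over the 27 HOX genes. A stop codon in the last exon has no exon junction downstream of it, the landmark that marks many decay substrates. The HOXD1 stop lay in the last exon, as did that of 95.6% of coding genes and of 27 of 27 HOX genes. The transcript had a GC content of 55.6%, higher than in 71.1% of coding genes.

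The sequences below show the gene and the reagents. The first is the stretch of 250 bases before the annotated start, chr2:177053146-177053395 on the plus strand of GRCh37, with a CCAAT box on the minus strand (ATTGG) and an E box (CACGTG) in capitals. The second joins the last 15 bases of exon 1 to the first 15 bases of exon 2, read from the plus strand of chr2 between 177054167 and 177054550, with the bases on either side of the junction in capitals. The last pair are the UPF1 siRNAs listed for the study, with in capitals the stretch that pairs with bases 2 to 8 of the opposite strand, the seed.
HOXD1 upstream: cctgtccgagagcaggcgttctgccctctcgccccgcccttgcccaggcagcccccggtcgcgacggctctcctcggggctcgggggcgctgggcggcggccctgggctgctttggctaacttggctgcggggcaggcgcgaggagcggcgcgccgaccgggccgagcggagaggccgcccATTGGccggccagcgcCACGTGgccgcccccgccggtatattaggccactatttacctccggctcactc
HOXD1 exon junction: atgcctctaagaaaGGcaaactcgccgagt
siRNA to the UPF1 coding sequence: ccaagaugcaguuccGCUCCAUu
siRNA to the UPF1 3′UTR: gcuuaguccaucagcauCUUAUUCu

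The upstream stretch had a GC content of 74.8%, higher than in 89.2% of 35116 RefSeq promoters of GRCh38.p14, and held 31 CpG dinucleotides against a promoter median of 11. It was identical to the RefSeq sequence of the HOXD1 promoter. Motifs were searched on both strands in windows of the same length. CCAAT occurred once, at position -69 from the start, and was found in 32.0% of all promoters. The E box CACGTG occurred once, at position -53, and was found in 6.34% of promoters. GGGCGG, the GC box, occurred 4 times and was found in 42.6% of promoters. Neither TATAAA, found in 10.7% of promoters, nor the nuclear receptor half-site AGGTCA, found in 12.1%, was present in these letters. These are matches of letters and not measured binding.

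Both siRNA sequences were found whole in the UPF1 transcript. Neither seed had a match in the canonical HOXD1 transcript. Of 15262 transcripts, 19.4% held the seed of the coding-sequence siRNA and 16.3% that of the 3′UTR siRNA. HOXD1, at 1886 bases, is shorter than the coding median of 3305, which makes a match less likely. The seed of the listed strand was not searched, and the sequence of the control siRNA is not given in the sources used here. The longest run either siRNA shared with HOXD1 was 7 bases, and 86.8% and 83.1% of transcripts, respectively, held a run at least as long. Which of these siRNAs was used for sequencing is not given in the sources used here.

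The HOXD1 transcript could be told apart from its relatives. Of its 1856 windows of 31 bases, 0 occurred in a gene elsewhere in the annotation, and the longest run shared with any gene at another locus was 27 bases, with HOXA9. The 3 annotated genes at the locus itself, HOXD1 and HAGLR among them, were left out of this search. At its own locus, the long noncoding RNA HAGLR is transcribed from the opposite strand. The annotated extents of both genes overlap over 291 bases, from 177053396 to 177053686. The canonical HAGLR transcript starts outside this stretch, at 177053259. On the NCBI annotation used for the FPKM values, this overlap was not examined. The library kit keeps strand, but the strand setting of the quantification is not given in the sources used here, so fragments from this overlap may have been assigned to either gene. The tables also list MIR7704, a microRNA that RefSeq places inside HOXD1, at 0.00113 FPKM or less in every library.

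UPF1 was measured first, as the check of the labels. Its level was 44.5 and 47.4 FPKM in the siControl libraries and 20.7 and 21.9 FPKM in the siUPF1 libraries, 2.16-fold lower on the means (log2 fold change -1.07, SE 0.0928, limma adjusted p = 0.0308). The adjusted call, though not the unadjusted one, was lost with no minimum, under quantile normalization, under median centring and with the replicate block. UPF1 in the plasmid experiment was 45.1 and 57.4 FPKM in MYC and 2835 and 2484 FPKM in MYC-UPF1, 51.9-fold higher (log2 fold change 5.68, SE 0.1101, adjusted p = 8.91e-09). Each group thus carried the UPF1 level that its label names. Log2 fold changes throughout are on the scale log2(FPKM + 1), which understates the change of low genes.

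HOXD1 stood at 10.1 and 11.7 FPKM in the siControl libraries, a mean of 10.9 ± 1.17 (SD, n = 2). In the siUPF1 libraries it stood at 3.98 and 3.11 FPKM, a mean of 3.54 ± 0.614 (SD, n = 2). The groups did not overlap, which also held for 15 of the 19 other HOX genes tested, and the means differed 3.08-fold. On the log2(FPKM + 1) scale the difference was -1.39, and the pooled SD between replicates was 0.171. The gene was selected on this difference, so its size beside the SD is no test. With 2 libraries a group the smallest p an exact test of 1 gene can give is 0.333. In a bulk library, fewer cells that express the gene and less RNA per cell cannot be told apart.

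This was the lowest log2 difference among 13535 tested genes, the criterion by which HOXD1 was chosen. The next below it in size was PRTFDC1, a paralogue of the purine salvage enzyme HPRT1, at -1.24. The readthrough gene RPL17-C18orf32 followed at -1.15, although its siControl libraries (8.46 and 1.72 FPKM) overlapped its siUPF1 libraries (0.298 and 3.04 FPKM). RFK, the riboflavin kinase, came next at -1.08, just ahead of UPF1 itself at -1.07. HOXD1 was selected as the largest fall, so its place ahead of the targeted gene is no result.

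In the plasmid experiment, which did not enter the selection, HOXD1 stood at 5.73 and 7.85 FPKM in MYC (mean 6.79 ± 1.495, SD, n = 2). It stood at 6.61 and 5.99 FPKM in MYC-UPF1 (mean 6.30 ± 0.439, SD, n = 2). Both MYC-UPF1 libraries lay between the MYC libraries. The log2 fold change was -0.08 (SE 0.149, 95% interval -0.41 to 0.25), and it did not pass the test (limma, unadjusted p = 0.60, adjusted p = 1.0). The interval leaves room for a shift of either sign. Without MYC replicate 2 the value was 0.12, so its direction rests on that library.

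**Figure D1:**
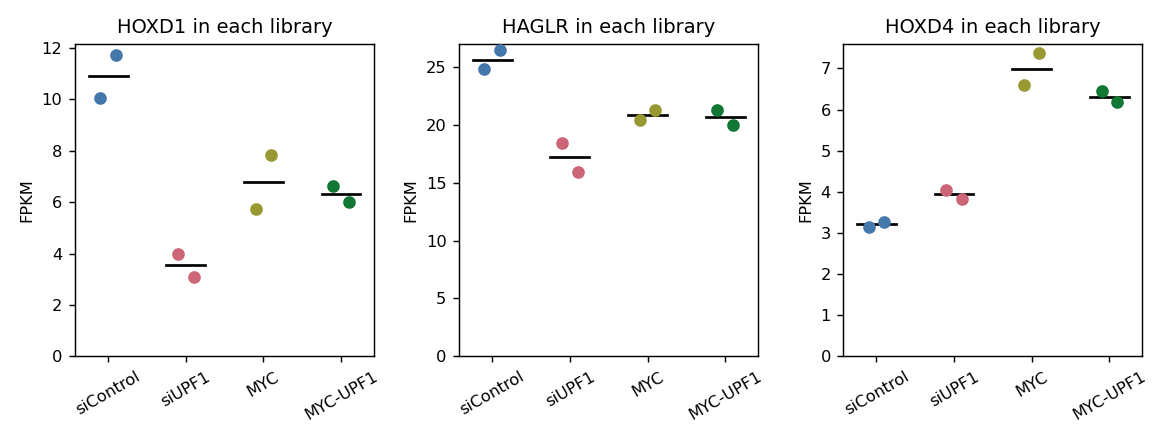
FPKM of HOXD1, HAGLR and HOXD4 (y axes, each from 0) in the 4 groups (x axis), with a point for each library and a bar at the mean of 2 libraries. HOXD1 and HAGLR are highest in siControl, lowest in siUPF1 and in between in both plasmid groups, whereas HOXD4 is lowest in siControl at 3.15 and 3.28 FPKM.

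Set side by side over the 4 groups, the HOXD1 level ran from siControl (10.9 FPKM) through MYC (6.79) and MYC-UPF1 (6.30) to siUPF1 (3.54). The MYC and MYC-UPF1 neighbours in this order overlapped, and the other neighbours did not. The 4 plasmid libraries had a mean of 6.55 ± 0.942 (SD, n = 4) and lay between 5.73 and 7.85 FPKM. Both siControl libraries were above all of them, 1.66-fold on the means, and both siUPF1 libraries below, 1.85-fold. The siControl and MYC controls thus differed in HOXD1 level without overlap, and the transfected molecule (siRNA or plasmid) cannot be told apart from any other difference between these experiments. Of 13412 genes, 81 (0.604%) had the same non-overlapping order, and among 21 HOX genes HOXD1 was the only one. The order requires siControl above siUPF1, the difference on which HOXD1 was selected, so nothing is read from these counts. A further 199 genes, of which 0 were HOX genes, had the reverse order.

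Among the 27 HOX genes, HOXD1 ranked second in siControl, behind HOXC10 and ahead of the rest. Its rank was 3 in MYC and in MYC-UPF1 and 6 in siUPF1. It contributed 16.4% of the summed HOX FPKM in siControl and 5.66% in siUPF1, against 9.59% in MYC and 8.78% in MYC-UPF1. Within all genes of the tables, 70.8% lay below HOXD1 in siControl and 46.6% in siUPF1. HOXD1 was thus a moderately expressed gene in each group, well above the minimum of 0.5 FPKM set for testing.

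The nearest relation to HOXD1 in position was HAGLR. Its gene spans chr2:177028779-177053686 on the minus strand, and the start of its canonical transcript, 177053259, lies 137 bases upstream of the HOXD1 start, so that the pair diverges from 1 short region. HAGLR stood at 24.8 and 26.4 FPKM in siControl and at 18.5 and 15.9 FPKM in siUPF1. It fell 1.49-fold (log2 fold change -0.55, SE 0.105, limma unadjusted p = 0.00123), and its adjusted p of 0.0808 missed the threshold. This call remained at an unadjusted p of 0.05 in every alternative tried. HAGLR in the plasmid experiment stood at 20.4 and 21.3 FPKM in MYC and at 21.2 and 20.01 FPKM in MYC-UPF1, a log2 fold change of -0.02 that did not pass the test (unadjusted p = 0.868).

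Across the 8 libraries HAGLR followed HOXD1 with a Pearson r of 0.982 on log2(FPKM + 1), and only 1 of 13411 genes had a higher r with HOXD1. The spread of HAGLR over the libraries was 40.01% of that of HOXD1. The order was also the same, with siControl above the plasmid libraries (20.01 to 21.3 FPKM) and siUPF1 below them. These points share their libraries and are dominated by the siControl and siUPF1 difference on which HOXD1 was selected. Part of the fragments of both genes may come from the 291 bases where the gene extents overlap, which the canonical HAGLR transcript does not reach.

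The other genes within 1 Mb of HOXD1 in the tables were LNPK, HOXD-AS2, HOXD8, HOXD3, MIR10B, HOXD4, HAGLROS and MTX2. Including HAGLR, 6 of these 9 were tested after depletion. At the study's threshold, an unadjusted p of 0.05, HOXD4 rose and HAGLR fell, against 16.0% of all tested genes that rose and 5.51% that fell. The balance between these background percentages depended on scaling: 2162 genes rose and 746 fell as deposited, 1417 and 1408 after quantile normalization, 1602 and 1271 after median centring, and 1479 and 1512 once the trend with GC content and length was removed. HOXD4, the next coding gene upstream among those tested (chr2:177016278-177017954, plus strand), stood at 3.15 and 3.28 FPKM in siControl and 4.05 and 3.83 FPKM in siUPF1 (log2 fold change 0.23, SE 0.0925, adjusted p = 0.217). That call was lost with no minimum, under quantile normalization, under median centring, with either replicate block and once the GC and length trend was removed (log2 fold change 0.05), and also without siControl replicate 1, siControl replicate 2 or siUPF1 replicate 1. Without siUPF1 replicate 1, 3 genes of this window fell in place of 1.

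HOXD4 did not share the HOXD1 order over the groups, since its plasmid libraries, 6.18 to 7.38 FPKM, lay above both siRNA groups. MTX2, a mitochondrial outer membrane import gene that flanks the cluster, stood at 36.9 and 38.1 FPKM in siControl and 37.4 and 30.5 FPKM in siUPF1, which overlapped (log2 fold change -0.15, unadjusted p = 0.251). LNPK, an endoplasmic reticulum junction gene on the far flank, also overlapped (log2 fold change 0.09, unadjusted p = 0.404). HAGLROS, a noncoding RNA that lies inside HAGLR on the opposite strand, had a log2 fold change of -0.17 (unadjusted p = 0.218) at levels of 0.718 to 1.24 FPKM. HOXD3 and HOXD8 were below 0.5 FPKM in every library and were not tested. After UPF1 overexpression 0 of 6 genes in this window passed the unadjusted threshold, against 0.619% of all tested genes that rose and 0.807% that fell.

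Of the other 26 HOX genes, 19 passed the minimum of 0.5 FPKM in the depletion experiment. HOXA3, HOXC9 and HOXD4 rose and HOXA7 fell, 3 and 1 of 19, or 15.8% and 5.26%, which is close to the share of all genes that rose and fell. At an adjusted p of 0.05, 0 of 19 were called, where 0.0369% of all tested genes were. Their log2 fold changes ran from -0.51 for HOXA7 to 0.33 for HOXA3, with 12 above and 7 below 0 and a median of 0.083 beside 0.057 for all tested genes. The median was -0.042 once the GC and length trend was removed and -0.0013 under quantile normalization, so it has no firm direction; under both of these settings 1 HOX gene rose and 5 fell. The count of 4 dropped to 2 without siControl replicate 1 and to 1 without siControl replicate 2, and without siUPF1 replicate 1 the adjusted count was 4. The HOXD1 difference of -1.39, on which the gene was selected, lay outside this range.

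HOXA7, a central gene of cluster A, stood at 0.948 and 1.24 FPKM in siControl and 0.591 and 0.357 FPKM in siUPF1. Its groups did not overlap (log2 fold change -0.51, SE 0.126, limma adjusted p = 0.112), which held for 15 of the 19 other HOX genes tested. The unadjusted call remained in every alternative that kept all libraries and tested the gene, which a minimum of 5 FPKM did not. With 1 library left out the log2 fold change ran from -0.62 to -0.39. At this level the added 1 FPKM shrinks the fold change, and the means differed 2.30-fold. HOXA7 did not share the HOXD1 order, because its plasmid libraries, 1.22 to 1.63 FPKM, included values above siControl. HOXA3, nearer to the 3′ end of the same cluster, stood at 3.17 and 3.23 FPKM in siControl and rose to 4.002 and 4.57 FPKM in siUPF1 (log2 fold change 0.33, SE 0.0993, adjusted p = 0.147). The HOXA3 call was lost when either siControl library was left out.

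Cluster C held the most abundant member, HOXC10, a posterior HOX gene at 17.5 and 19.4 FPKM in siControl and 19.0 and 18.4 FPKM in siUPF1. Its groups overlapped, with a log2 fold change of 0.02 (unadjusted p = 0.841). HOXC6 stood at 4.50 and 4.73 FPKM in siControl and 5.41 and 5.28 FPKM in siUPF1 (log2 fold change 0.18, unadjusted p = 0.0929). HOXC9 was 3.51 and 2.98 FPKM in siControl and 3.95 and 4.29 FPKM in siUPF1 (log2 fold change 0.27, adjusted p = 0.209), a call lost with no minimum, under quantile normalization, under median centring, with the replicate block, once the GC and length trend was removed and without siControl replicate 2. Of the 8 genes of cluster C that were tested, 6 had a value above 0 and 2, HOXC5 and HOXC8, below. HOXC4, HOXC11 and HOXC13 lay at 0.18, 0.07 and 0.13 on the log2 scale.

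HOXA2, an anterior gene of cluster A, was low, between 0.403 and 0.770 FPKM in the 8 libraries, with a log2 fold change after depletion of -0.01 (unadjusted p = 0.953). Also in cluster A, HOXA4, HOXA9, HOXA5 and HOXA10 lay at 0.11, 0.09, -0.25 and -0.16, and of cluster B, HOXB7 lay at 0.21 and HOXB9 at -0.15, without passing the test. HOXA11 missed the minimum in the depletion experiment and was tested in the plasmid experiment, at -0.04.

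In the plasmid experiment 0 of 20 other HOX genes passed the unadjusted threshold, beside 0.619% of all genes that rose and 0.807% that fell, and 0 passed the adjusted one, which 0.00755% of all tested genes did. Their log2 fold changes ran from -0.18 for HOXC13 to 0.27 for HOXA10, with a median of 0.019 beside -0.014 for all genes. HOXA10 stood at 2.03 and 2.49 FPKM in MYC and 2.75 and 3.10 FPKM in MYC-UPF1 (limma unadjusted p = 0.0661). Its groups did not overlap, which held for 7 of these 20 genes. HOXA10 was called without MYC replicate 2, under quantile normalization, under median centring, with all 8 libraries in 1 fit and without the trend. It was called with HOXA3 once the GC and length trend was removed, and with HOXA2 and HOXA3 with the crossed block, while HOXA2 alone was called with no minimum. The HOXD1 value of -0.08 lay inside the range of its family here.

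**Figure D2:**
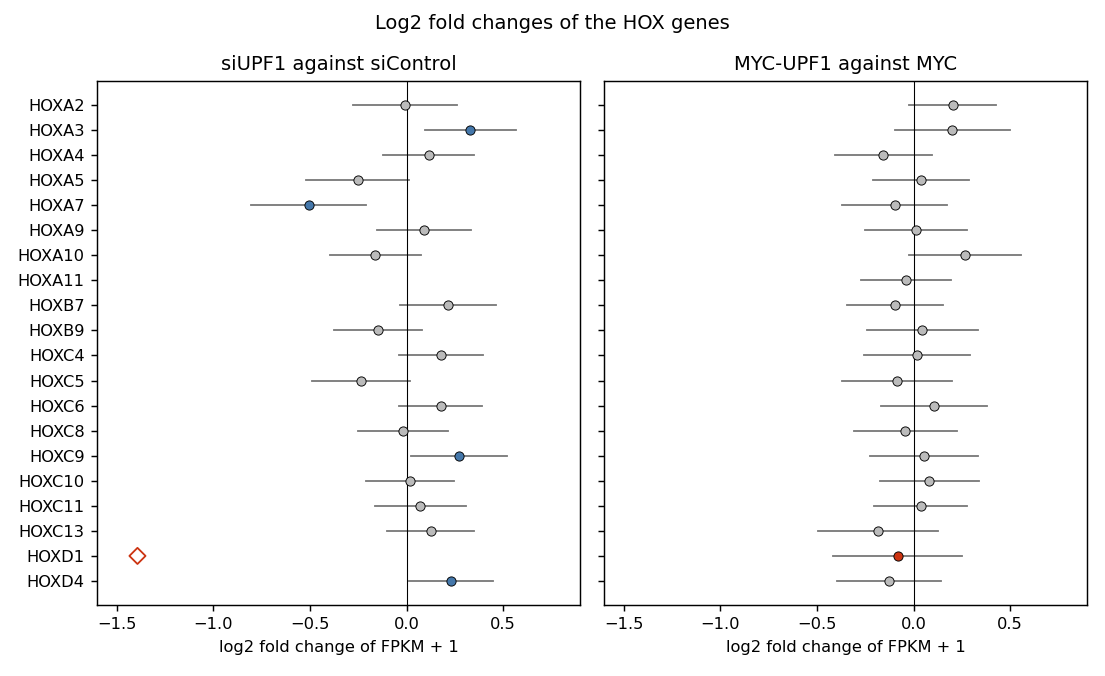
Log2 fold change of FPKM + 1 (x axis) for the HOX genes shown (y axis), each with a mean of at least 0.5 FPKM over the 8 libraries, after depletion on the left and in the plasmid experiment on the right, with 95% intervals and with called genes filled in blue. HOXD1, drawn in red and open without an interval on the left, lies at -1.39 outside the span of -0.51 to 0.33 of the other HOX genes, and at -0.08 inside their span on the right.

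Noncoding and antisense transcripts of the HOX clusters numbered 13 in the tables, of which 9 were tested after depletion. HOXC-AS1 rose and HAGLR fell, 1 of 9 each (11.1%), beside 16.0% and 5.51% of all genes; 3 rose without siControl replicate 2, and 2 rose and 2 fell without siUPF1 replicate 1. HOXC-AS1, antisense in cluster C, stood at 0.718 and 0.702 FPKM in siControl and 1.497 and 1.07 FPKM in siUPF1 (log2 fold change 0.41, adjusted p = 0.142), a call lost once the GC and length trend was removed. HOTAIR, a noncoding RNA of cluster C, overlapped between the groups (log2 fold change -0.04, unadjusted p = 0.717). HOTAIRM1, a noncoding RNA of cluster A, had a log2 fold change of 0.27 (unadjusted p = 0.172), with its siControl libraries at 1.67 and 2.93 FPKM. HOXA-AS2, HOXC-AS3, HOXC13-AS, HOXD-AS2 and HAGLROS did not pass the test, and HOTTIP, HOXA11-AS, HOXA10-HOXA9 and MIR10B were too low to be tested. After overexpression 0 of 8 passed, and 1 rose without MYC-UPF1 replicate 2.

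HOX proteins bind DNA together with PBX, MEIS and PKNOX homeodomain proteins. Of 7 cofactor genes tested after depletion, 1 rose and 0 fell (14.3% and 0.0%, beside 16.0% and 5.51% of all genes), with 2 falls under quantile normalization. The gene that rose was PBXIP1, which encodes a protein that binds PBX factors, from 9.75 and 10.1 FPKM in siControl to 13.9 and 18.6 FPKM in siUPF1 (log2 fold change 0.65, SE 0.138, limma adjusted p = 0.0850). PBX2, the most abundant of them, stood at 11.05 and 13.1 FPKM in siControl and 13.8 and 13.1 FPKM in siUPF1 (log2 fold change 0.15, unadjusted p = 0.213). PBX3, MEIS1, MEIS2 and PKNOX1 lay between -0.16 and -0.01 on the log2 scale. After overexpression 0 of 7 passed.

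Polycomb complexes keep HOX genes silent, and Trithorax and MLL complexes keep them active. Of 36 Polycomb genes tested after depletion, 6 rose and 1 fell (16.7% and 2.78%, beside 16.0% and 5.51% of all genes), with a median of -0.018 beside 0.057 for all genes. The balance was not stable: 1 rose and 4 fell once the GC and length trend was removed, 9 rose and 11 fell without siUPF1 replicate 1, and only 1 rose without siControl replicate 1 and 3 without siControl replicate 2. The 6 were CBX7, JARID2, CBX6, PHF1, RING1 and CBX2, with log2 fold changes of 0.38, 0.34, 0.34, 0.30, 0.29 and 0.24. YY1, a zinc finger factor linked to Polycomb recruitment, fell from 13.1 and 13.3 to 10.8 and 10.996 FPKM (-0.26), a call lost when either siControl library was left out. PHC2 was the most abundant member at 30.5 and 33.5 FPKM in siControl and 34.3 and 33.9 FPKM in siUPF1, with a log2 fold change of 0.09 (unadjusted p = 0.370). Of the 6, only JARID2 was still called once the GC and length trend was removed.

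Of 26 Trithorax and MLL genes, 2 rose and 0 fell (7.69% and 0.0%, beside 16.0% and 5.51% of all genes), namely the histone methyltransferase KMT2D (0.36) and HCFC1 (0.26), a subunit of MLL and SETD1 complexes, whereas WDR82, the most abundant, had 0.09 (unadjusted p = 0.376). HCFC1 changed sign once the GC and length trend was removed, to -0.00689, and then 0 rose and 2 fell. Without siUPF1 replicate 1, 7 rose and 2 fell, whereas 1 rose without siControl replicate 1 or siUPF1 replicate 2 and 0 rose without siControl replicate 2. CTCF and cohesin shape the boundaries within HOX clusters. Of 11 such boundary genes, MAZ (0.28) and SMC1A (0.26) rose and PDS5A (-0.40) and RAD21 (-0.27) fell (18.2% each way, beside 16.0% and 5.51% of all genes), and MAZ, the most abundant, also changed sign under that setting, to -0.00916. With either siControl library left out, PDS5A was the only boundary gene called, and without siUPF1 replicate 2 there were 1 rise and 1 fall. With UPF1 overexpressed, 0 of 36 Polycomb, 0 of 26 Trithorax and MLL and 0 of 11 boundary genes passed, but 5 Trithorax and MLL genes and 1 boundary gene fell without MYC replicate 1, and 3 of the former without MYC-UPF1 replicate 1. Of all these lists, 0 members passed an adjusted p of 0.05 in either experiment.

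Retinoic acid, formed from retinol, switches on genes at the 3′ ends of the HOX clusters through RAR and RXR receptors. Of 22 genes of the pathway tested after depletion, 7 rose and 1 fell (31.8% and 4.55%, beside 16.0% and 5.51% of all genes), with a median of 0.081 beside 0.057 for all genes. The number that rose dropped to 2 without siControl replicate 1 and to 4 without siControl replicate 2, and 6 rose and 3 fell once the GC and length trend was removed. RDH10, the enzyme that makes retinaldehyde from retinol, stood at 8.93 and 10.2 FPKM in siControl and fell to 6.11 and 4.64 FPKM in siUPF1 (log2 fold change -0.74, SE 0.135, adjusted p = 0.0793). Its unadjusted call remained in every alternative that kept all libraries, and with 1 library left out the value ran from -0.91 to -0.57. DHRS3, which turns retinaldehyde back to retinol, rose from 14.8 and 16.4 to 18.7 and 22.8 FPKM (log2 fold change 0.38, adjusted p = 0.152), a call lost without siControl replicate 1.

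Among the carriers, RBP2, a cellular retinol-binding protein, rose from 8.41 and 8.77 to 10.7 and 12.0 FPKM (log2 fold change 0.37, adjusted p = 0.124), a call lost without siControl replicate 1. RBP4, the secreted retinol carrier and the most abundant member at 908 to 1203 FPKM, overlapped between siControl and siUPF1 (-0.03). TGM2, a transglutaminase induced by retinoic acid, rose from 6.21 and 6.15 to 8.31 and 8.41 FPKM (0.38, adjusted p = 0.0974). NCOA1, a nuclear receptor coactivator gene, rose by 0.27 and the retinol dehydrogenase gene RDH11 by 0.23. With UPF1 overexpressed, 0 of 21 genes passed, but 2 fell without MYC replicate 1 and 1 without MYC-UPF1 replicate 1. The calls of RDH10 and TGM2 remained in every alternative tried.

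Of 6 tested ParaHox and extended Hox genes, homeobox genes related to the HOX clusters, 2 rose and 0 fell (33.3% and 0.0%, beside 16.0% and 5.51% of all genes), and 1 rose without siControl replicate 2. PDX1, a pancreas and duodenum factor, rose from 1.13 and 1.3003 to 2.20 and 2.02 FPKM (log2 fold change 0.49, adjusted p = 0.0835), and MNX1 rose by 0.31, which turned to -0.0109 once the GC and length trend was removed. CDX2, an intestinal factor that acts upstream of HOX genes and the most abundant here, stood at 10.6 and 10.01 FPKM in siControl and 9.79 and 10.2 FPKM in siUPF1 (log2 fold change -0.04, unadjusted p = 0.699). In the plasmid experiment 0 of 7 passed.

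The genes whose pattern was most like that of HOXD1 were sought among 1469 genes whose SD over the 8 libraries was at least 0.5 times that of HOXD1. PEG10, an imprinted gene derived from a retrotransposon, had the highest Pearson r, 0.980 over 8 libraries. It was followed by RDH10 (0.939), the acute phase protein gene HP (0.937), TM4SF4 (0.930), IL1RAP (0.930), GAR1 (0.927), SLC27A2 (0.922), SELENOT (0.915), the pseudogene HMGB1P6 (0.904) and HMGB1 (0.902). HMGB1P6 and HMGB1 are near copies and may share fragments. PEG10 stood at 247 and 248 FPKM in siControl, 153 and 139 FPKM in siUPF1, and 170 to 205 FPKM in the plasmid libraries. IL1RAP, the interleukin-1 receptor accessory chain, went from 13.6 and 15.04 FPKM to 7.47 and 5.50 FPKM, with 8.55 to 10.8 FPKM in the plasmid libraries. These correlations use the libraries on which HOXD1 was selected and are given as a description.

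**Figure D3:**
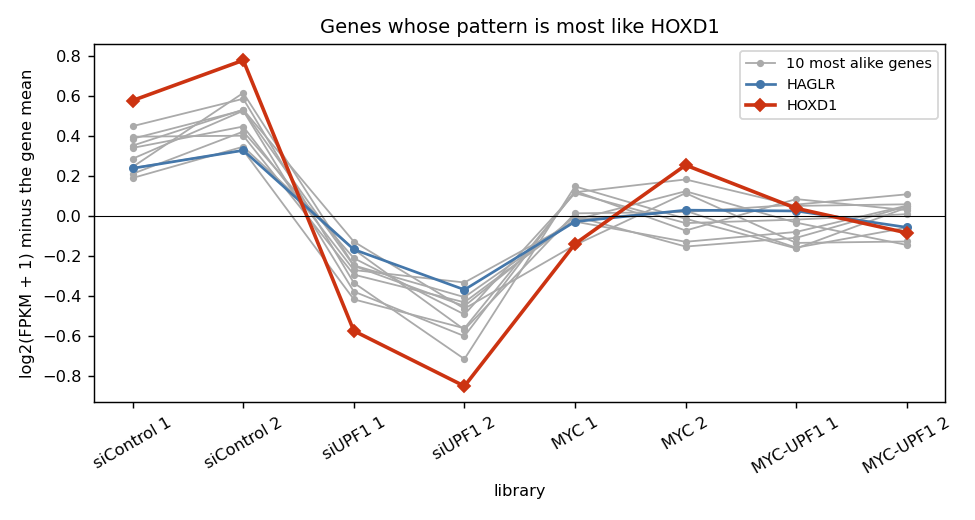
log2(FPKM + 1) minus the gene's mean over the 8 libraries (y axis) in each library (x axis) for HOXD1, HAGLR and the 10 most alike genes. All 12 lines are above 0 in both siControl libraries and below 0 in both siUPF1 libraries, and lie between in most plasmid libraries. RDH10 in siUPF1 replicate 1 (-0.128), however, is no lower than in MYC replicate 1 (-0.145) or MYC-UPF1 replicate 1 (-0.135). HOXD1 has the widest span, from -0.85 to 0.78.

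GC content moved with the change after depletion across the table. Over 12509 tested genes with a known transcript, split into 10 equal bins by GC content, the median log2 fold change was -0.113 in the lowest bin and 0.257 in the highest. HOXD1, at 55.6%, belonged to the bin from 54.75% to 58.11%, where the median of 1251 genes was 0.145 and 18.2% lay below 0. Once the trend with GC content and length was removed, its log2 difference was -1.53, against -1.39 before.

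The labelled cell type was checked against its markers. All 16 hepatocyte markers were in the tables, and alpha-fetoprotein (AFP), the most abundant, stood at 11093 to 12505 FPKM over the 8 libraries. Of the 16, 1 rose after depletion and 1, APOA2 (log2 fold change 0.16, unadjusted p = 0.0259), rose in the plasmid experiment, and 0 fell in either. That is 6.25% in each, beside 16.0% of all genes that rose after depletion and 0.619% in the plasmid experiment (5.51% and 0.807% fell). After depletion 4 rose without siUPF1 replicate 1 and 0 without siControl replicate 1, and 1 fell when either siUPF1 library was left out. With UPF1 overexpressed, 1 fell without MYC replicate 1, MYC replicate 2 or MYC-UPF1 replicate 2, and the APOA2 call was lost without MYC replicate 2 or MYC-UPF1 replicate 2. Their summed level lay between 22879 and 26529 FPKM in each library. Of 10 fibroblast and stellate markers, 4 were in the tables, with a summed level of 7.58 to 11.8 FPKM, PDGFRA the most abundant, and COL1A1 and DCN not listed. Of 10 leukocyte markers, 4 were listed with a summed level of 166 to 234 FPKM, nearly all of it LYZ at 160 to 227 FPKM, whereas PTPRC was not listed. Of 8 endothelial markers only PECAM1 was listed, at 0.535 to 0.796 FPKM. Of the tested members of these last lists, 0 of 2, 0 of 3 and 0 of 1 passed the unadjusted threshold in each experiment, but 1 leukocyte marker fell after depletion without siUPF1 replicate 1, and 1 rose in the plasmid experiment without MYC replicate 1 or MYC-UPF1 replicate 1.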

How the data were processed

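Huh7 mRNA libraries (TruSeq Stranded mRNA, paired-end, NovaSeq; 4 groups of 2) were processed by the authors, who trimmed reads, aligned them to hg19 with HISAT2 2.1.0 and estimated abundance with StringTie 1.3.4d against NCBI annotation. The submitters' processing notes also list FastQC 0.11.7, Trimmomatic 0.38 and CASAVA. The deposited FPKM values were used as given (17076 genes, all above 0 in all 8 libraries), and the single-library files held the same values as the series tables, with 0 differences. Whole reads could not be recovered (the commonest step between libraries covered 0.344% of 1163 low genes), so depth and counting error are unknown. Summed FPKM ran from 403902 to 455592 per library.

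Each treated group was compared with its control in limma 3.58.1 (R 4.3.3; lmFit, then eBayes with its trend option) on log2(FPKM + 1). Genes entered a test where their 4 libraries averaged 0.5 FPKM or more. The unadjusted threshold of 0.05 follows the study, which names no model, and Benjamini-Hochberg adjustment ran over all tested genes. "Rose" and "fell" mean an unadjusted p of 0.05. The fits were tested on simulated data. Annotation was GENCODE 44 on GRCh37 (15741 genes matched, 15262 with a transcript); promoters came from RefSeq. Python 3.11.15, pandas 2.3.3 and matplotlib 3.10.9 were used.

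HOXD1, the gene lists and the tests were chosen with earlier results of these data known. Lists (other HOX genes, noncoding HOX genes, genes within 1 Mb, cofactors, Polycomb, Trithorax and MLL, boundary factors, retinoic acid pathway, ParaHox and extended Hox genes, and markers of hepatocytes, fibroblasts, leukocytes and endothelium) were written from general knowledge and are described by counts and medians. Genes named were HOXD1, UPF1, HOX genes with a mean of at least 0.5 FPKM or called, noncoding HOX genes, neighbours, called list members (at most 5 each way) with the most abundant one, the 10 genes most like HOXD1, and the 3 next to it in the order of falls. Cofactor genes, HOXD3, HOXD8 and the low noncoding genes were named beyond it after their values were seen, as were NCOA1, RDH11 and CBX2. Some list members are not reported here.

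Alternatives were a pseudocount of 0.1, no minimum, a minimum of 5, quantile normalization, median centring, 1 fit over 8 libraries, no trend, a GC and length correction, a replicate block and each library left out.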

Additional observations from a re-analysis of the deposited data

How the results depend on the processing

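The HOXD1 difference after depletion was negative under every alternative, which is no test, since the gene was selected on this difference. It was -1.6 with a pseudocount of 0.1, beyond the replicate spread around -1.39, and -1.43 to -1.53 under median centring, quantile normalization and removal of the GC and length trend, which stayed within it. Leaving out 1 library gave -1.53 to -1.25. In the plasmid experiment HOXD1 lay at -0.08 and at -0.28 to 0.12 with 1 library left out, and the sign turned only without MYC replicate 2 (0.12). With 1 library left out the lone sample was assumed to vary like the other group.

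The other HOX genes called after depletion numbered 4, but 0 of 1 tested gene with a minimum of 5 FPKM, 2 with the replicate block, and 1 to 5 with 1 library left out. At an adjusted p of 0.05 there were 0, 1 once the GC and length trend was removed, and 0 to 4 with 1 library left out. In the plasmid experiment there were 0, and 1 each with no minimum, under quantile normalization, under median centring, with all 8 libraries in 1 fit and without the trend. There were 2 once the GC and length trend was removed, 3 with the crossed block and 0 to 1 with 1 library left out. The adjusted count was 0 throughout. The cause of these shifts was not tested, other than that a minimum of 5 left 1 gene.

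Same-numbered libraries did not deviate in the same direction (r = -0.13 over 13535 genes in depletion and -0.57 over 13251 genes in the plasmid experiment), so the numbers were not taken to pair samples. The negative r of the plasmid experiment means that differently numbered libraries deviated together there. The main fit leaves this in its error, and its cause was not tested. With the replicate block 1979 genes rose and 607 fell after depletion (0 at an adjusted p), and 74 and 96 in the plasmid experiment (20 at an adjusted p). A crossed block, added after seeing the data, gave 2190 and 912 (90 adjusted) and 348 and 879 (32 adjusted).

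Of all genes tested after depletion, 5 passed an adjusted p of 0.05. That count was 0 with no minimum, under quantile normalization and under median centring, 316 with a minimum of 5 FPKM, 368 with all 8 libraries in 1 fit and 447 once the GC and length trend was removed. It was 115 and 153 without siControl replicate 1 or 2, and 4539 and 1240 without siUPF1 replicate 1 or 2. In the plasmid experiment it was 1, and 5 to 66 with 1 library left out. Without siControl replicate 1, 941 rose and 494 fell, and without siUPF1 replicate 1, 3675 rose and 2221 fell. Over 28 single-gene results, HOXD1 not among them, 234 of 271 values under other settings kept their call, 34 lost it and 3 changed sign. The 3 were HCFC1 (-0.00689), MAZ (-0.00916) and MNX1 (-0.0109), all with the GC and length trend removed. With 1 library left out 78 of 112 of these values kept their call and 0 changed sign. Depth is unknown, so the counting error of low genes is unknown too.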
